A study of Mus musculus with 6 samples.

Results

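The interferon regulatory factors (IRFs) are transcription factors that share a DNA-binding domain for GAAA-rich motifs in the promoters of interferons and interferon-stimulated genes. IRF5 and IRF7 are activated downstream of MyD88 when Toll-like receptor 7 (TLR7), an endosomal receptor for single-stranded RNA, is engaged, whereas IRF3 is activated by the kinase TBK1 and IRF9 acts in the ISGF3 complex below the type I interferon receptor. IRF4 and IRF8 direct lymphoid and myeloid development with partner factors such as PU.1, and IRF1 and IRF2 act as an activator and its antagonist on the same motifs. The family is described here by 8 genes, Irf1, Irf2, Irf3, Irf4, Irf5, Irf7, Irf8 and Irf9. They were found as the probes that the platform annotation gives their symbols: 15 of the 16535 probes kept, and 8 of the 9173 genes measured. All 15 passed the filter on dim probes. Each gene is read through its brightest probe, and every other probe is given too.

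The study compared splenic cells of TLR7tg mice, which carry a Tlr7 transgene and are used as a model of systemic lupus erythematosus, with those of C57BL/6 (B6) wild-type mice on an Illumina mouse BeadArray. There were 3 TLR7tg and 3 B6 mice. The TLR7tg cells are labelled NK1.1+ and the B6 cells NK cells, and the series design names NK1.1+ cells for both lines. NK1.1, encoded by Klrb1c, is the surface receptor by which natural killer (NK) cells of B6 mice are recognised. The promoter and copy number of the transgene, the age and sex of the mice and the way the cells were isolated are not given in the sources used here. Each replicate is a mouse with its own identifier. Replicate 1 of each line is an average of 2 technical arrays, and in the title of TLR7tg replicate 1 stands the mouse identifier that belongs to B6 replicate 1, unlike in its other labels. Values are normalised signals on the log2 scale, on which a probe below 6.9 is taken as not detected. Differences are TLR7tg minus B6 and were tested with limma, with p-values adjusted over all kept probes and a threshold of 0.05. A signal is set only against the same probe in another mouse, since probes differ in brightness.

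Tlr7 was higher in TLR7tg cells, and their NK markers were lower than in B6 cells, some of them below detection. Tlr7 was 13.04, 14.45 and 13.92 in TLR7tg mice, against 8.48, 9.39 and 9.53 in B6 mice, and rose by 4.67 (SE 0.38, limma adjusted p = 0.000248). Of 9 measured NK markers 9 fell, with a mean level of 7.75 to 8.90 in TLR7tg mice and of 11.33 to 11.42 in B6 mice. Klrb1c was 7.08, 7.41 and 7.92 in TLR7tg mice, against 8.96, 9.93 and 10.02 in B6 mice, and the NK genes Eomes and Ncr1 lay below 6.9 in all 3 TLR7tg mice. The log2 of the summed NK level ran from 11.22 to 12.93 in TLR7tg and from 15.73 to 15.90 in B6. Of 9 monocyte and macrophage markers 7 rose (summed level 15.74 to 15.83 in TLR7tg and 12.97 to 14.22 in B6), and Nr4a1 lay below the filter, which kept probes at 6.9 or more in at least 3 of the 6 mice. Of 5 red pulp macrophage markers 3 fell, Vcam1 (-2.23), Slc40a1 (-2.10) and Mertk (-1.31), with a summed level of 11.11 to 11.86 in TLR7tg and 12.16 to 13.54 in B6. Without a filter none of these 3 passed (limma adjusted p from 0.0528 for Vcam1 to 0.0924 for Slc40a1). Slc40a1 and Mertk did not pass without B6 replicate 2, nor did Mertk without TLR7tg replicate 2. Of 2 erythroid markers Alas2 rose (1.64) and Slc4a1 was at 2.22 (limma adjusted p = 0.0522). Their summed level was 9.15 to 11.62 in TLR7tg and 8.21 to 8.74 in B6. Slc4a1 passed in 7 of 16 alternatives (limma adjusted p from 0.000529). Of 7 neutrophil markers 7 rose (summed level 12.36 to 16.36 in TLR7tg and 9.68 to 10.61 in B6), with TLR7tg replicate 3 at 9.13 for the mean of the list and the other TLR7tg mice at 12.21 and 12.77. Of 4 T cell markers 4 fell and of 5 B cell markers 0 passed (limma unadjusted p under 0.05 in 1 of them). In such bulk RNA fewer cells of a type and less RNA per cell cannot be told apart. The part of these marker shifts in the results below was not tested.

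Within the family, Irf5 and Irf7 were higher in TLR7tg cells and the other 6 genes did not pass. Of all 9173 genes, 7.74% were called higher, 6.97% lower and 14.7% in either direction. The family's 2 of 8 called higher stands beside the first of these shares, and 8 genes are too few to read more from it. The groups did not overlap in 5 of the 8 genes, 3 with every TLR7tg mouse above every B6 mouse (Irf5, Irf7 and Irf9) and 2 with every TLR7tg mouse below (Irf3 and Irf8). Among all genes this held for 32.7%, 14.1% above and 18.5% below. An unadjusted p under 0.05 was found for 4 of the 8, against 27.7% of all genes. The median difference of the 8 genes was 0.30, beside -0.06 over all genes.

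**Figure D1:**
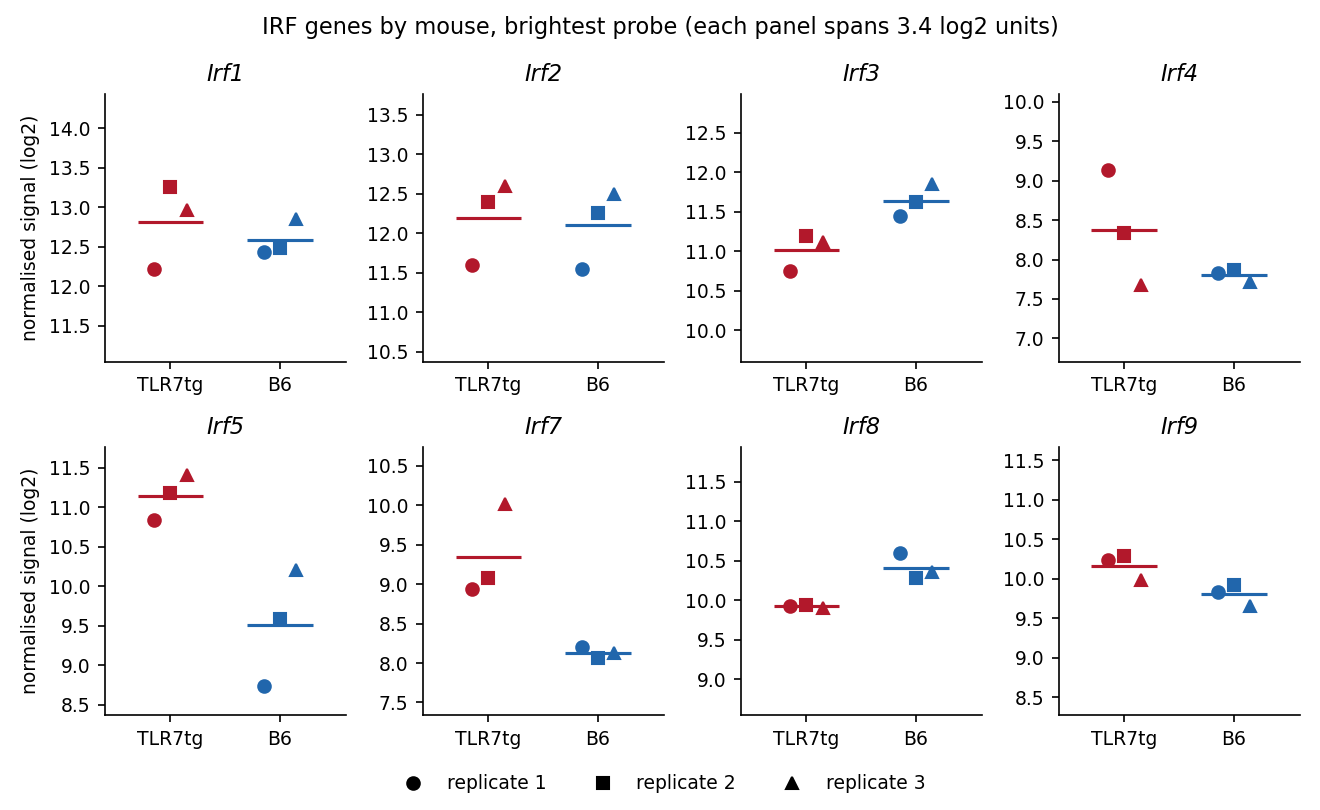
Normalised log2 signal of the brightest probe of each IRF gene in 3 TLR7tg mice (left in each panel) and 3 B6 mice (right), with symbols for replicates and lines for group means; each panel spans 3.4 log2 units. The TLR7tg points lie above all B6 points for Irf5, Irf7 and Irf9, below them for Irf3 and Irf8, and on both sides of some or all of them for Irf1, Irf2 and Irf4, whose groups overlap.

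The promoter windows of 5 members are printed because they show which members carry the motifs through which interferon signalling and the IRFs themselves act. The windows are those of RefSeq on mouse build GRCm38.p6, from 250 bases before to 50 after the annotated start, and 11 windows matched the 8 genes. Both strands were searched for 3 motifs. The core of the interferon-stimulated response element (ISRE), bound by ISGF3 and IRFs, was spelled GAAA, 2 bases of any kind, then GAAA. The ETS-IRF composite element, which PU.1 binds with IRF4 or IRF8, was spelled GGAA, 2 bases of any kind, then GAAA. The gamma-activated site (GAS), found in promoters that respond to interferon gamma, was spelled TTCNNNGAA. Capitals mark the matched letters. The windows lie at chr6:29526375-29526674 (Irf5, plus strand), chr7:141266375-141266674 (Irf7, minus strand), chr8:120736108-120736407 (Irf8, plus strand), chr11:53769764-53770063 (Irf1, plus strand) and chr8:46739495-46739794 (Irf2, plus strand).
Irf5: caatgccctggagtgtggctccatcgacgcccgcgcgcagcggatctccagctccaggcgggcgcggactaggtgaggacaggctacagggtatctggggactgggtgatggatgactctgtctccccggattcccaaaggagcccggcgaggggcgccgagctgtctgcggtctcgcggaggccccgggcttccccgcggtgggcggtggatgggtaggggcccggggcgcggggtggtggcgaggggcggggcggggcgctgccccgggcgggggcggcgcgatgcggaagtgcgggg
Irf7: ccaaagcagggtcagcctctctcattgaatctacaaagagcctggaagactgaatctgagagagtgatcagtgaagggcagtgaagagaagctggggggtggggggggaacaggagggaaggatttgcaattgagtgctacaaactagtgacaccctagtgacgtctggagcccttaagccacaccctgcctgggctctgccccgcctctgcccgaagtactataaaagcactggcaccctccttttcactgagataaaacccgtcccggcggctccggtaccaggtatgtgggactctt
Irf8: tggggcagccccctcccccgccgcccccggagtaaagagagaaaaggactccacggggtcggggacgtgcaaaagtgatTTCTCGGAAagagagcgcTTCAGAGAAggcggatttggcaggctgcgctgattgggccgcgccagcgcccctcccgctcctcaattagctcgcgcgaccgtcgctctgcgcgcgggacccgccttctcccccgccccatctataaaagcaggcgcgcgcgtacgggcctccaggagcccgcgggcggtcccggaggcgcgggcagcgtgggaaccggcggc
Irf1: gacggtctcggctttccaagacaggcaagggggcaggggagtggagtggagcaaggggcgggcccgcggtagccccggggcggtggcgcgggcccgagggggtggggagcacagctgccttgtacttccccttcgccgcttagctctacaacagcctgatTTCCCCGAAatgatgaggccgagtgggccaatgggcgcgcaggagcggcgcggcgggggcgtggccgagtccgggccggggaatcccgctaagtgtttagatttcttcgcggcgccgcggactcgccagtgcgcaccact
Irf2: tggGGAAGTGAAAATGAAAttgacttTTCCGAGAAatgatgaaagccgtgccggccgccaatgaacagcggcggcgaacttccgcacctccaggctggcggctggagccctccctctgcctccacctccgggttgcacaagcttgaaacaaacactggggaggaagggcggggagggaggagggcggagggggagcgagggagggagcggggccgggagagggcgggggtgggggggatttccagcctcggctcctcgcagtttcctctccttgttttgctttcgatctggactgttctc

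The Irf5 and Irf7 windows, those of the members that were higher in TLR7tg cells, held none of the 3 motifs, which says only that these letters are not in these windows. They differ in base composition, with 74.7% G and C in Irf5 and 55.0% in Irf7. The printed Irf8 window held 2 GAS matches, at -171 to -163 and -153 to -145 from the start, and the printed Irf1 window 1, at -90 to -82. Irf8 and Irf1 each have another window, not printed, that held none of the motifs. The Irf2 window held all 3 motifs. Its composite element at -247 to -238 overlaps its ISRE core at -241 to -232, and its GAS match lies at -224 to -216. The windows of Irf3, Irf4 and Irf9 held none. Among 32851 RefSeq windows of the same length, 3.44% held the ISRE core, 2.72% the composite element and 8.30% the GAS letters. A match is a description of the sequence, and binding was not measured.

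Irf5, whose protein drives inflammatory cytokine genes in myeloid cells and B cells after TLR7 signalling, had the largest difference of the family. Its signal was 10.84, 11.18 and 11.40 in TLR7tg mice, against 8.73, 9.58 and 10.21 in B6 mice. Every TLR7tg mouse lay above every B6 mouse, although the B6 mice spread over more than the TLR7tg mice did. The means were 11.14 ± 0.28 in TLR7tg and 9.51 ± 0.74 in B6 (SD, n = 3 each), a rise of 1.63 (SE 0.34, 95% interval 0.86 to 2.41, limma adjusted p = 0.0139), or 3.10-fold on the deposited scale. Among the 9173 genes its rise ranked 212. The difference was 2.11 between the replicate 1 mice and 1.40 among the other 4. On the arrays named for the replicate 1 mice the unnormalised linear signal of this probe was 9669 and 12912 in TLR7tg and 1029 and 1124 in B6. The median difference of kept probes on those arrays was itself 0.73 (log2, TLR7tg minus B6), and relative to it Irf5 was at 2.64. Relative to the same median Irf1 was at 0.24, Irf2 at 0.59, Irf3 at -0.16 and Irf9 at 0.77. Their deposited replicate 1 differences were -0.21, 0.05, -0.70 and 0.40. Values on this scale thus lay above the deposited ones for the other members too, not for Irf5 alone. The call ended when TLR7tg replicate 2 (adjusted p = 0.0572) or B6 replicate 2 (0.0516) was left out, and when dim probes were kept (0.0841), over a range of 0.000831 to 0.0841 in 16 alternatives of limma.

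The monocyte and macrophage markers had mean levels of 11.45, 11.38 and 11.24 in TLR7tg replicates 1 to 3 and of 8.98, 9.65 and 9.95 in B6 replicates 1 to 3. The B6 mouse with the lowest Irf5 signal was the one with the lowest marker mean, and the order of the B6 mice was the same in both measures. In TLR7tg mice the orders were opposite. The red pulp macrophage markers ran the other way between the lines, with mean levels of 8.49, 8.71 and 9.07 in TLR7tg replicates 1 to 3 and of 9.16, 10.24 and 9.67 in B6 replicates 1 to 3. The part of these markers in the difference of Irf5 was not tested.

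Irf7, which amplifies type I interferon transcription and is itself an interferon-stimulated gene, was 8.94, 9.07 and 10.02 in TLR7tg mice and 8.20, 8.06 and 8.12 in B6 mice. The groups did not overlap, the B6 mice lay close together, and TLR7tg replicate 3 stood above the other TLR7tg mice. The means were 9.35 ± 0.59 in TLR7tg and 8.13 ± 0.07 in B6 (SD, n = 3 each), a rise of 1.22 (SE 0.28, 95% interval 0.60 to 1.84, limma adjusted p = 0.0196), or 2.33-fold, which ranked 409. Between the replicate 1 mice the difference was 0.74 and among the other 4 it was 1.46, and without TLR7tg replicate 3 it was 0.88 (limma adjusted p = 0.0225). The unnormalised linear signal was 2373 and 2850 on the TLR7tg arrays and 651 and 667 on the B6 arrays of the replicate 1 mice. Relative to the median difference of kept probes on these arrays Irf7 was at 1.25 (log2, TLR7tg minus B6). The call ended without B6 replicate 2 (adjusted p = 0.0815), without B6 replicate 3 (0.0589) and without a filter (0.0868), over a range of 0.00538 to 0.0868 in 16 limma alternatives.

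Irf4, the factor of plasma cell, germinal centre and T helper differentiation, did not pass. Its signal was 9.13, 8.33 and 7.68 in TLR7tg mice, against 7.83, 7.86 and 7.72 in B6 mice. TLR7tg replicates 1 and 2 lay above all B6 mice and replicate 3 below them, so that the groups overlapped. The means were 8.38 ± 0.73 in TLR7tg and 7.80 ± 0.08 in B6 (SD, n = 3 each), and the difference was 0.58 (SE 0.32, 95% interval -0.15 to 1.30, limma adjusted p = 0.320). It was 1.30 between the replicate 1 mice and 0.21 among the other 4. Without TLR7tg replicate 1 it was 0.20, and without TLR7tg replicate 3 it was 0.93 (limma adjusted p = 0.0592, in a range of 0.0592 to 0.678 over 16 alternatives). The upper end of the interval lies above the difference of Irf7. On the replicate 1 arrays the unnormalised linear signal of Irf4 was 2533 and 3648 in TLR7tg and 445 and 447 in B6. Relative to the median difference of kept probes on these arrays Irf4 was at 2.03 (log2, TLR7tg minus B6).

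TLR7tg replicate 1, the mouse with the highest Irf4, also had the highest B cell and plasma cell marker means. The B cell markers averaged 9.0, 8.59 and 8.28 in TLR7tg replicates 1 to 3 and 8.97, 8.75 and 8.42 in B6 replicates 1 to 3, and 0 of 5 passed. The 2 measured plasma cell markers, Mzb1 and Xbp1, averaged 12.21, 11.02 and 11.06 in TLR7tg mice and 10.13, 10.60 and 9.75 in B6 mice, and Sdc1, Jchain, Prdm1 and Tnfrsf17 lay below the filter. The log2 of the summed B cell level ran from 11.24 to 12.33 in TLR7tg and from 11.15 to 12.04 in B6, and that of the plasma cell markers from 12.23 to 13.24 in TLR7tg and from 11.04 to 11.61 in B6. The part of these markers in the Irf4 values was not tested.

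Irf8, the lineage factor of monocytes, conventional type 1 and plasmacytoid dendritic cells, lay below its B6 level in every TLR7tg mouse but did not pass. It was 9.93, 9.94 and 9.90 in TLR7tg mice, against 10.59, 10.29 and 10.36 in B6 mice. The TLR7tg mice were closer together (9.92 ± 0.02, SD, n = 3) than for any other member's brightest probe, and the B6 mean was 10.41 ± 0.16 (SD, n = 3). The difference was -0.49 (SE 0.17, 95% interval -0.87 to -0.11, limma adjusted p = 0.0933), with -0.67 between the replicate 1 mice and -0.41 among the other 4. Irf8 passed with the replicate 1 mice against the other 4 as a block (limma adjusted p = 0.0400). So it did with neighbouring mouse identifiers as a block (0.0444) and when dim probes were kept (0.0496). The range was 0.0400 to 0.267 over 16 limma alternatives. On the unnormalised scale the replicate 1 mice ran the other way, with linear signals of 5069 and 6278 on the TLR7tg arrays and 3991 and 4211 on the B6 arrays. The median difference of kept probes on those arrays was itself 0.73 (log2, TLR7tg minus B6), and relative to it Irf8 was at -0.27. Plasmacytoid markers had 1 fall among 4 (Cox6a2, -0.82, a call that ended in 5 of 16 alternatives) and conventional dendritic cell markers 0 calls among 3, with Flt3, Zbtb46, Xcr1 and Ccr9 below the filter. Monocyte and macrophage markers ran the other way from Irf8, with 7 of 9 higher (median 1.86). All 9 measured NK markers fell (median -3.38). The part of these markers in the Irf8 values was not tested.

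Set against each other within each mouse, the TLR7 effectors stood higher relative to the lineage factors in TLR7tg cells than in B6 cells. The mean of Irf5 and Irf7 minus the mean of Irf4 and Irf8 was 0.36, 0.99 and 1.93 in TLR7tg mice, against -0.75, -0.25 and 0.12 in B6 mice. The groups did not overlap. The means were 1.09 ± 0.79 in TLR7tg and -0.29 ± 0.44 in B6 (SD, n = 3 each), and the difference of 1.38 was 1.11 in the replicate 1 mice, 1.52 in the other 4 and from 0.97 to 1.75 when each mouse was left out in turn. No p is given for this score, since its genes were chosen with results of these data known. Levels of different probes cannot be set against each other, so only the change of the score between the lines can be read.

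The pairs of genes did not behave alike. Irf5 minus Irf8 was 0.91, 1.23 and 1.51 in TLR7tg mice and -1.86, -0.70 and -0.16 in B6 mice, a difference of 2.13 with no overlap. Irf7 minus Irf8 was -0.98, -0.87 and 0.12 in TLR7tg mice and -2.39, -2.23 and -2.24 in B6 mice, a difference of 1.71 with no overlap. Against Irf4 the groups overlapped for both effectors. Irf5 minus Irf4 differed by 1.06, and Irf7 minus Irf4 by 0.64, with -0.56 in the replicate 1 mice and 1.24 in the other 4. The lineage factors, neither of which passed, differed from each other as well. Irf4 minus Irf8 was -0.80, -1.61 and -2.22 in TLR7tg mice and -2.76, -2.42 and -2.65 in B6 mice. The difference was 1.07 with no overlap, with 1.96 in the replicate 1 mice and 0.62 in the other 4. The mean of the lineage factors thus averages differences of opposite sign.

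**Figure D2:**
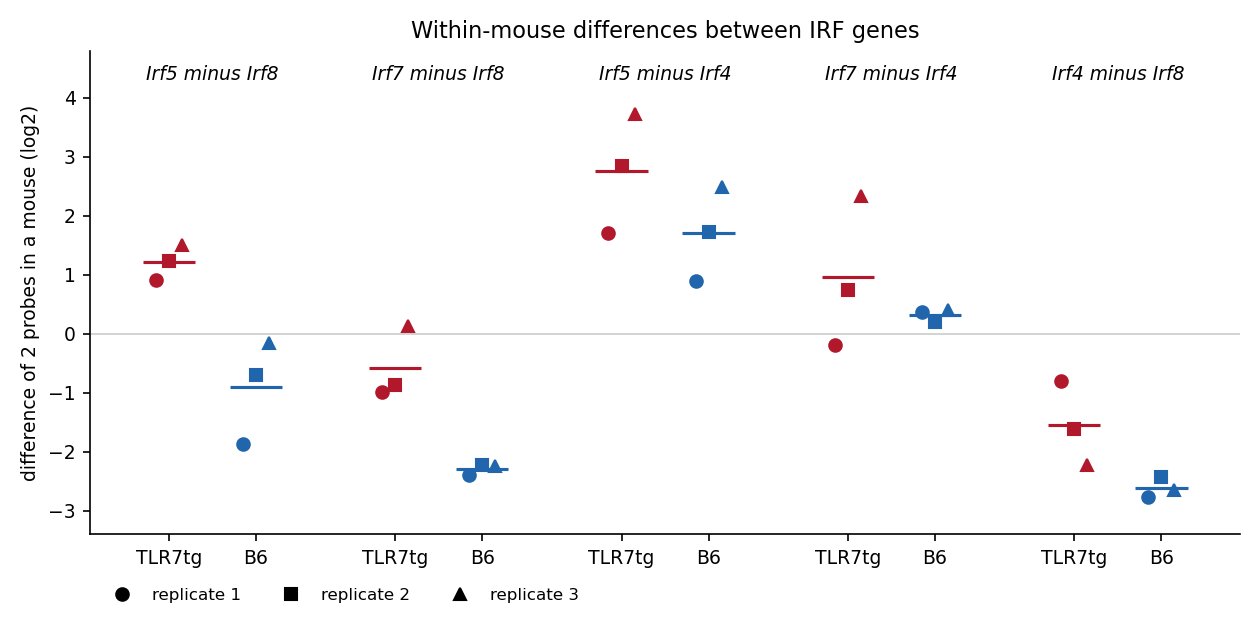
Difference between the log2 signals of 2 IRF genes in the same mouse, for 3 TLR7tg mice (left of each pair) and 3 B6 mice (right), with a symbol per replicate and a line at the group mean. The TLR7tg points lie above all B6 points for Irf5 minus Irf8, Irf7 minus Irf8 and Irf4 minus Irf8, and overlap with them for Irf5 minus Irf4 and Irf7 minus Irf4.

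Irf9, the DNA-binding subunit of ISGF3, was 10.23, 10.29 and 9.98 in TLR7tg mice and 9.84, 9.92 and 9.65 in B6 mice on its brighter probe. The groups did not overlap, and the difference of 0.37 (SE 0.18, 95% interval -0.03 to 0.76, limma adjusted p = 0.238) was near that of the replicate 1 mice (0.40) and of the other 4 (0.35). Its other probe differed by 0.35 with overlapping groups (limma adjusted p = 0.403).

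Irf3, the factor that TBK1 phosphorylates after sensing of viral nucleic acid, was 10.75, 11.19 and 11.11 in TLR7tg mice and 11.45, 11.63 and 11.85 in B6 mice on its brightest probe. Every TLR7tg mouse lay below every B6 mouse. The difference was -0.62 (SE 0.19, 95% interval -1.06 to -0.18, limma adjusted p = 0.0707), -0.70 between the replicate 1 mice and -0.59 among the other 4. Irf3 passed with array weights (limma adjusted p = 0.0425) and with replicate 1 against the other mice (0.0155) or the identifiers (0.0176) as a block. The range was 0.0155 to 0.235 over 16 limma alternatives. The other 2 probes differed by -0.33 and -0.22, with overlapping groups (limma adjusted p = 0.591 and 0.579). The mean of the 3 probes differed by -0.39.

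Irf1, induced by interferon gamma and an activator of antigen presentation genes, has 5 probes. On the brightest it was 12.22, 13.26 and 12.96 in TLR7tg mice and 12.43, 12.49 and 12.85 in B6 mice, with overlapping groups and a difference of 0.22 (SE 0.27, 95% interval -0.39 to 0.84, limma adjusted p = 0.704). The replicate 1 mice differed by -0.21 and the other 4 by 0.44, and the difference was 0.0030 without TLR7tg replicate 2 and 0.52 without TLR7tg replicate 1. The other 4 probes differed by 0.12, 0.51, 0.50 and 0.50 (limma adjusted p = 0.109 to 0.815), and the probe with 0.51 had no overlap between the groups. Irf2, the factor that competes with IRF1, was 11.59, 12.39 and 12.60 in TLR7tg mice and 11.54, 12.26 and 12.50 in B6 mice on its 1 probe. The mice of the 2 lines ran side by side from low to high, with a difference of 0.09 (SE 0.32, 95% interval -0.63 to 0.81, limma adjusted p = 0.916).

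**Figure D3:**
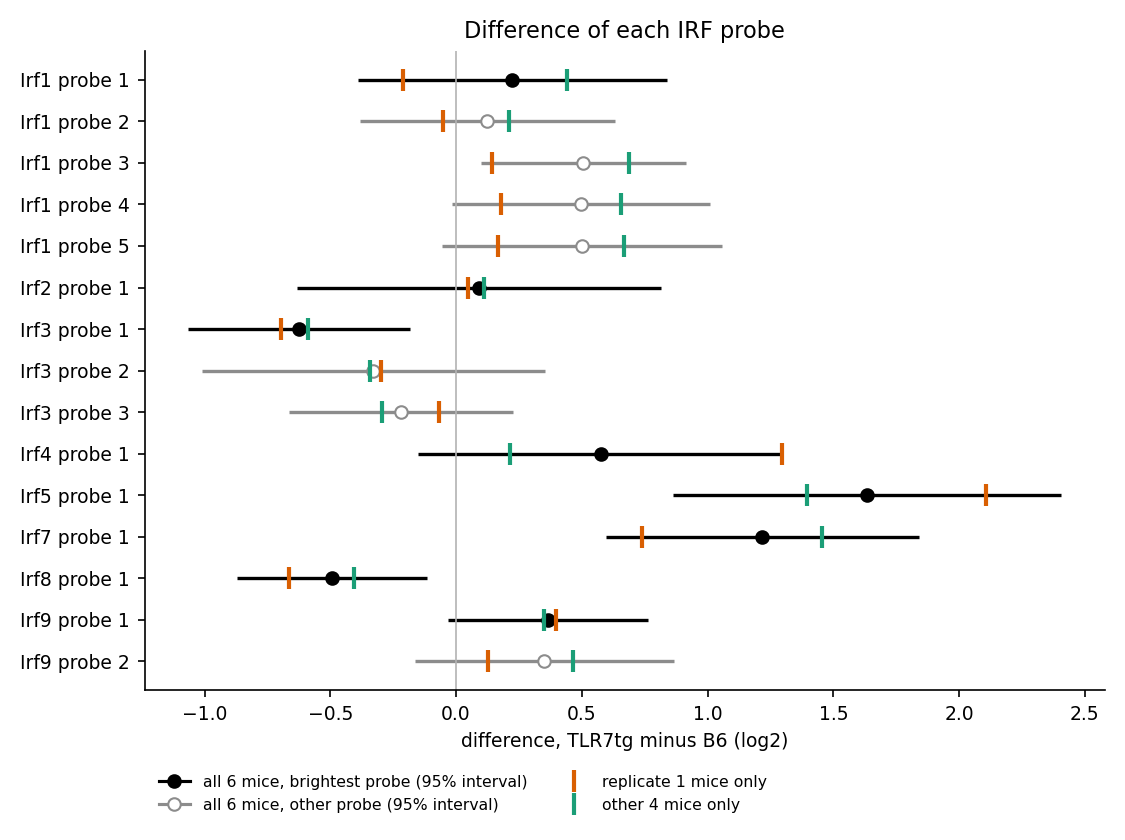
Difference between TLR7tg and B6 (log2) for each of the 15 IRF probes with its 95% interval from limma, filled for the brightest probe of a gene and open for the others; ticks show the replicate 1 mice and the other 4 mice apart. The intervals of Irf5 and Irf7 lie furthest above 0, and those of the brightest Irf3 probe and of Irf8 lie below it.

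Around the family, 12 lists of signalling genes, partners and targets held 113 measured genes, of which 38 rose and 8 fell. Some genes are in more than 1 list, and the lists were drawn up with earlier results of these data known, so that a count is a description. The share of all genes called in each direction (7.74% and 6.97%) is the background for the counts of calls below. Where a count under another setting is given, the share of all genes called higher was 2.41% when dim probes were kept and 4.60% to 8.22% with a mouse left out, and the share called lower was 2.83% and 3.71% to 6.86% in those settings.

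**Figure D4:**
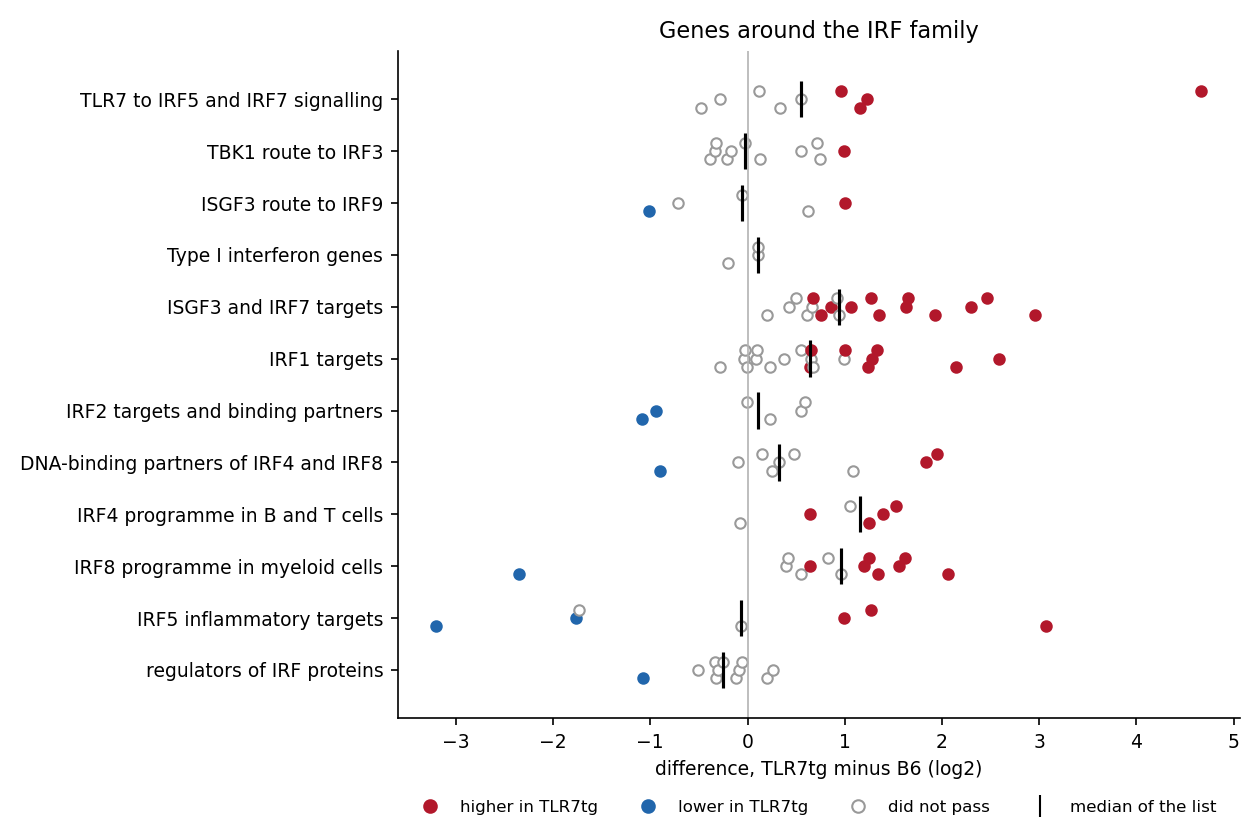
Difference between TLR7tg and B6 (log2) of every measured gene in the 12 lists around the IRF family, coloured where higher or lower in TLR7tg at an adjusted p under 0.05 and open where not, with a bar at each median. The ISGF3 and IRF7 targets lie mostly to the right of 0 (median 0.94), and the genes of the TBK1 route and the regulators of IRF proteins lie around it.

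On the route from TLR7 to IRF5 and IRF7, 4 of 9 genes rose and 0 fell, with a median of 0.55. Beside the transgene product Tlr7 these were Unc93b1 (1.22, limma adjusted p = 0.00337), which carries TLR7 to endosomes, Slc15a4 (1.16), an endolysosomal transporter needed for TLR7 responses, and Myd88 (0.97), the adaptor. Unc93b1 was 11.57, 11.27 and 11.31 in TLR7tg mice and 9.91, 10.37 and 10.20 in B6 mice. Myd88 was 11.94, 12.27 and 12.11 in TLR7tg mice and 11.10, 11.05 and 11.27 in B6 mice. Neither gene had overlapping groups, and each of the 4 calls stood in 16 of 16 alternatives. Below the adaptor, the kinase gene Irak1 (-0.47, 95% interval -1.08 to 0.13) and Ikbkb (0.55, 0.09 to 1.01), a kinase of NF-kB and of IRF5, did not pass. Irak1 passed without TLR7tg replicate 1 (limma adjusted p = 0.0341). Ikbkb passed with replicate 1 against the other mice or the identifiers as a block (0.0432 and 0.0478).

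On the TBK1 route to IRF3, 1 of 11 genes rose and 0 fell, and the median was -0.03. Dhx58, the RNA helicase LGP2 and an interferon-stimulated gene, rose by 0.99 (limma adjusted p = 0.0136), a call that ended without B6 replicate 2 (0.0660, in a range of 0.00183 to 0.0660). Tbk1 itself was 10.48, 10.97 and 10.78 in TLR7tg mice and 10.84, 11.10 and 10.79 in B6 mice, with overlapping groups (-0.17, 95% interval -0.61 to 0.26). The related kinase gene Ikbke was at 0.71 (-0.02 to 1.44) and passed in 1 of 16 alternatives, without TLR7tg replicate 1 (0.0418).

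On the ISGF3 route below the interferon receptor, 1 of 5 genes rose and 1 fell. Usp18, a feedback inhibitor of the receptor, rose by 1.0 (limma adjusted p = 0.0343), and the kinase gene Jak1 fell by 1.01 (0.0160). The call of Usp18 ended when any 1 of 5 mice was left out, all but TLR7tg replicate 1 (adjusted p from 0.0708 to 0.102). It also ended when dim probes were kept (0.120). That of Jak1 ended without B6 replicate 2 or 3 (0.0536 to 0.364), where the brightest probe may be another Jak1 probe. The Jak1 probe of the main fit was at -0.94 between the replicate 1 mice and -1.05 among the other 4, without overlap. Over the 16 alternatives the Jak1 difference ran from -1.36 to -0.52, so the size of its fall depended on the setting. Stat2 was 8.18, 8.53 and 8.74 in TLR7tg mice and 7.62, 7.83 and 8.14 in B6 mice, above in every TLR7tg mouse but not past the threshold (0.62, 95% interval 0.13 to 1.11). The other receptor kinase gene, Tyk2, was at -0.71 (-1.24 to -0.19). Stat2 passed with replicate 1 against the other mice or the identifiers as a block (0.0219 and 0.0151) and without TLR7tg replicate 1 (0.0468). Tyk2 passed with either block and with array weights (0.0161 to 0.0484).

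Most type I interferon genes themselves lay below the filter on dim probes. Of 14 listed, 11 lay below the filter, Ifnb1 among them, and 0 of the 3 measured passed (limma; 0 with an unadjusted p under 0.05). Ifnab was detected in every mouse, at 7.38, 7.85 and 8.14 in TLR7tg mice and 7.55, 8.20 and 8.22 in B6 mice. Ifna1 differed by 0.11 (95% interval -0.33 to 0.54), Ifna6 by 0.10 (-0.65 to 0.86) and Ifnab by -0.20 (-0.79 to 0.38), with overlapping groups in each. Interferon alpha genes are near-identical copies, so that a probe may read several of them. For the 11 genes below the filter a difference could not be seen or bounded.

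Genes that ISGF3 and IRF7 induce rose in larger number. Of 19 measured 12 rose and 0 fell, with a median of 0.94, and in 14 every TLR7tg mouse lay above every B6 mouse, as in 14.1% of all genes. Oasl2 and Oas2, of the oligoadenylate synthetase family that senses double-stranded RNA, rose by 2.95 and 2.47, Ifit3, which binds viral RNA, by 2.30 and Rsad2, the antiviral enzyme viperin, by 1.93. Ifit3 was 10.59, 11.03 and 11.39 in TLR7tg mice and 8.47, 8.93 and 8.72 in B6 mice (limma adjusted p = 0.000547). Oas2 was 8.50, 11.33 and 10.75 in TLR7tg mice and 6.95, 7.78 and 8.44 in B6 mice, groups that met closely, and its call ended without TLR7tg replicate 2 or 3 or B6 replicate 1 or 2 (adjusted p from 0.0954 to 0.141), in the trended and robust fit (0.0833) and without a filter (0.215). That of Oasl2 ended without a filter (0.0516), while Ifit3 and Rsad2 passed in 16 of 16 alternatives. Mx1, a GTPase that restricts viruses, was at 0.50 (95% interval -0.06 to 1.05) and Parp14 at 0.20 (-0.31 to 0.71). The count was 5 when dim probes were kept, 7 when TLR7tg replicate 3 was left out, 6 when B6 replicate 2 was and 7 when B6 replicate 3 was.

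The mean level of these 19 genes was 8.59, 9.22 and 9.24 in TLR7tg mice and 7.67, 7.80 and 7.94 in B6 mice. Within TLR7tg mice Irf7 was lowest in replicate 1 as the list was, whereas within B6 mice it was highest in replicate 1, where the list was lowest.

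**Figure D5:**
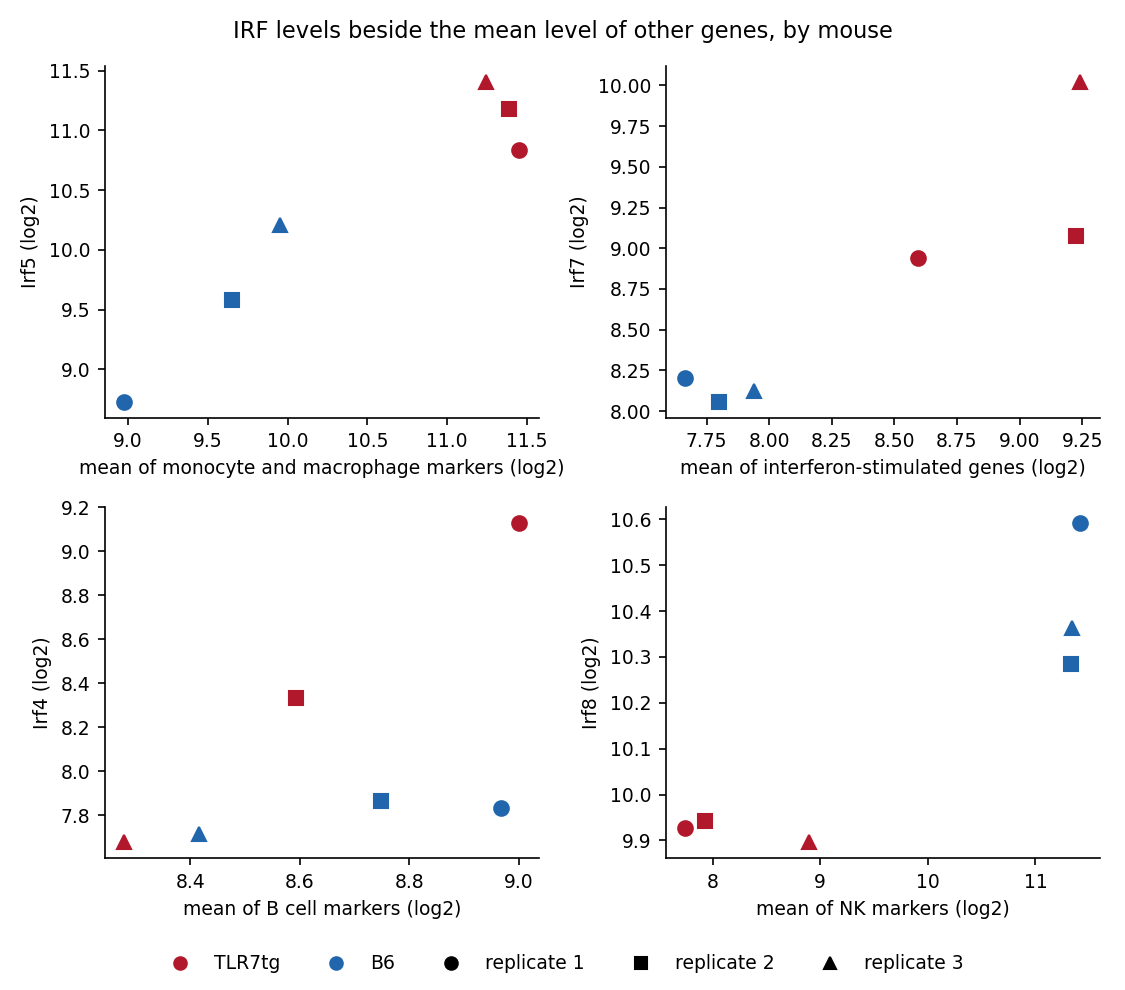
Log2 signal of Irf5, Irf7, Irf4 and Irf8 in each mouse (vertical) against the mean log2 level of, in order, monocyte and macrophage markers, interferon-stimulated genes, B cell markers and NK markers (horizontal). The 2 lines form separate clouds except for Irf4 and B cell markers, where they overlap on both axes.

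Of 20 measured IRF1 targets 8 rose and 0 fell, with a median of 0.64 (0.60 with undetected levels set to the detection bound), although Irf1 itself did not pass. The chemokine gene Cxcl9 rose by 2.59, the guanylate-binding protein genes Gbp2 and Gbp3 by 2.14 and 1.33, and Cd274, which encodes PD-L1, by 1.28. Cd274 was 10.51, 11.13 and 11.16 in TLR7tg mice and 9.36, 9.94 and 9.66 in B6 mice (limma adjusted p = 0.00769) and passed in 16 of 16 alternatives. The call of Gbp2 ended without TLR7tg replicate 2 (0.0512) and that of Gbp3 without each mouse other than TLR7tg replicate 1 (0.0574 to 0.105). When dim probes were kept, Cxcl9 (0.0738), Gbp2 (0.0741) and Gbp3 (0.126) did not pass. Psmb9, an immunoproteasome subunit gene, was at 0.65 (95% interval 0.01 to 1.29) and the cytokine gene Il15 at 0.23 (-0.16 to 0.62), and Psmb9 passed with the identifiers as a block (0.0206) and without TLR7tg replicate 2 (0.0407). The count was 4 when dim probes were kept, and 4 when any 1 of the mice except TLR7tg replicate 1 was left out. These genes also respond to interferon gamma and to ISGF3.

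Of 6 targets and binding partners of IRF2, 2 fell and 0 rose. Irf2bpl (-1.08, limma adjusted p = 0.0221) and Irf2bp1 (-0.94, 0.0210) belong to the IRF2-binding protein family of corepressors. Irf2bp1 was 8.28, 8.66 and 8.85 in TLR7tg mice and 9.31, 9.46 and 9.83 in B6 mice, without overlap. The call of Irf2bpl ended without TLR7tg replicate 2 or 3 or B6 replicate 1 or 2 (0.0631 to 0.0830), and that of Irf2bp1 without TLR7tg replicate 2 or B6 replicate 2 or 3 (0.0578 to 0.0833). Irf2bpl did not pass by the mean of its probes either (0.106). Neither passed without a filter, where the count was 0. Gsdmd, the pore-forming gasdermin D whose transcription IRF2 drives, was at 0.59 (95% interval -0.36 to 1.55), and Casp1 at 0.55 (-0.06 to 1.17). Gsdmd passed by the mean of its probes (0.0370) and with the identifiers as a block (0.0207).

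Among 9 genes of factors that bind DNA with IRF4 or IRF8, 2 rose and 1 fell. Spi1, which encodes PU.1, was 10.09, 9.36 and 9.56 in TLR7tg mice and 7.57, 7.75 and 7.84 in B6 mice, a rise of 1.95 (SE 0.22, limma adjusted p = 0.000758). Batf2, a partner of the BATF family, was not detected in B6 and was at least 3.29-fold higher in TLR7tg cells, with means of 8.62 in TLR7tg and 6.78 in B6. Both calls stood in every alternative that measured the gene. Ikzf1, the lymphoid factor Ikaros, fell by 0.90 (adjusted p = 0.0340), a call that ended in 11 of 16 alternatives, among them without any mouse but TLR7tg replicate 2 (0.0511 to 0.120). Batf3, needed with IRF8 for type 1 dendritic cells, was 8.57, 8.73 and 9.94 in TLR7tg mice and 7.81, 7.85 and 8.33 in B6 mice (1.08, 95% interval 0.30 to 1.86, limma adjusted p = 0.0751). It passed with array weights, with either block and without TLR7tg replicate 1 (0.00561 to 0.0349). So Spi1 rose in the cells in which Irf8 was not called and lay lower, a pair of values given side by side without a test of their difference.

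Of 6 genes of the IRF4 programme of B and T cells 4 rose and 0 fell, with a median of 1.15 (1.14 with undetected levels set to the detection bound). They were Il10 (not detected in B6, at least 2.35-fold higher in TLR7tg), the plasma cell and secretory factor gene Xbp1 (1.39), the germinal centre repressor gene Bcl6 (1.25) and Ciita (0.64), the activator of MHC class II genes. Xbp1 was 11.91, 11.98 and 11.77 in TLR7tg mice and 10.44, 10.36 and 10.69 in B6 mice (limma adjusted p = 0.00129), with no such spread among TLR7tg mice as Irf4 had. The call of Il10 ended without a filter (0.0503) and that of Ciita in 10 of 16 alternatives, among them without each of the 6 mice (0.0507 to 0.127). Pou2af1, a B cell coactivator gene, was at 1.06 (95% interval -0.14 to 2.25) and passed with the identifiers as a block (0.0142), and Prdm1 lay below the filter. These genes are not particular to lymphocytes, since Il10, Xbp1 and Bcl6 are also expressed by myeloid cells. The list does not sort its genes by whether IRF4 raises or lowers them, so the count gives no direction of the programme. Bcl6 and Ciita are also in the list of the IRF8 programme.

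Of 13 genes of the IRF8 programme of myeloid cells 7 rose and 1 fell, with a median of 0.96, while Irf8 itself did not pass. Klf4, a monocyte factor, rose by 2.06, Fcgr1, the high-affinity IgG receptor, by 1.62, and Ncf1, a subunit of the phagocyte oxidase, by 1.55. Fcgr1 was 8.95, 9.30 and 9.20 in TLR7tg mice and 7.10, 7.66 and 7.83 in B6 mice (limma adjusted p = 0.00200). Id2, a factor of dendritic and NK cell development that also belongs to NK cells, fell by 2.35 (0.00192). Klf4 did not pass without TLR7tg replicate 1 (0.0884) or in the 4 mice other than replicate 1 (0.158). Each alternative took the brightest probe of its own mice, which may be another Klf4 probe there. The probe of the main fit differed by 1.72 in those 4 mice, while the lowest difference over the alternatives was 0.63. The other 3 calls stood in every alternative that measured them. The monocyte receptor gene Cx3cr1 was at 0.96 (95% interval -0.36 to 2.28) and passed with either block (0.0309 and 0.0426). Fcgr1 and Cx3cr1 are also in the list of monocyte and macrophage markers.

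IRF5 inflammatory targets moved in both directions, 3 of 7 up and 2 down, with a median of -0.07. Il1b was 11.20, 11.29 and 11.85 in TLR7tg mice and 7.67, 8.16 and 9.32 in B6 mice, a rise of 3.07 (SE 0.38, limma adjusted p = 0.00131), and Cxcl10 rose by 1.27. Tnf, named after its values were seen, rose by 0.99 (0.0208). The chemokine genes Ccl5 and Ccl3 fell by 3.20 and 1.76. Both are also made in quantity by NK cells, whose 9 markers fell beside them. The part of these markers in the falls of Ccl5 and Ccl3 was not tested. Ccl5 was 10.38, 10.84 and 12.49 in TLR7tg mice and 13.96, 14.68 and 14.68 in B6 mice. The calls of Il1b and Ccl5 stood in 16 of 16 alternatives. Those of Cxcl10 ended without each mouse other than TLR7tg replicate 1 (0.0770 to 0.139), of Tnf without TLR7tg replicate 3 or any B6 mouse (0.0556 to 0.0771), and of Ccl3 without B6 replicate 2 (0.0563). When dim probes were kept, Cxcl10 (0.173), Tnf (0.0656) and Ccl3 (0.0740) did not pass, and Tnf did not in the 4 mice other than replicate 1 (0.0802). Of the 7, 1 rose when dim probes were kept, and 1 when TLR7tg replicate 3 or any B6 mouse was left out. Ccl4 (-1.73, 95% interval -2.96 to -0.50) and Il12a (-0.07, -0.43 to 0.30) did not pass, and Il6 and Il23a lay below the filter. Ccl4 did pass in 6 of 16 alternatives, with both blocks and array weights among them (limma adjusted p from 0.00644).

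The list of regulators of IRF proteins had 1 fall and 0 rises among 11, and a median of -0.25. The fall was in a gene given here as acting on RNA sensors and not on IRF proteins. Rnf125, a ubiquitin ligase of RNA sensors, was 7.09, 6.92 and 6.75 in TLR7tg mice and 8.08, 7.93 and 7.99 in B6 mice, a fall of 1.08 (limma adjusted p = 0.00366). It was not tested where detection in all 6 mice was required.

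For the 4 contrasted members, the genes whose levels ran most alike over the 6 mice were sought by the root mean square difference of mean-centred log2 values. Irf5 was closest to Pid1 (0.133), Tubb6 (0.134) and Rab31 (0.149), and Irf7 to Cfb (0.135), Igtp (0.143) and Tap1 (0.164). Cfb was not detected in B6 mice (6.68, 6.50 and 6.72). Irf4 was closest to Edem1 (0.0914), Fut8 (0.122) and Cd74 (0.130). Edem1 was 8.38, 7.76 and 7.04 in TLR7tg mice and 7.22, 7.17 and 6.87 in B6 mice, with TLR7tg replicate 1 highest as for Irf4. Irf8 was closest to Plod2 (0.0410), Adgra3 (0.0477) and Atg2a (0.0490), of which Plod2 and Adgra3 were not detected in TLR7tg mice. The measure covers 6 mice of 2 lines and takes in the difference between the lines, so that likeness of 3 genes among 9173 describes these values alone.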

How the data were processed

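Total RNA of 3 TLR7tg and 3 B6 mice was extracted with Trizol, labelled as biotinylated cRNA and hybridised to an Illumina mouse BeadArray, per the labels' protocols. The authors deposited log2 values of 45281 probes in 6 mice. The sorted columns differ by at most 0.0085, and no source used here names the tool behind them. In the replicate 1 mice the slope of the deposited log2 values on the log2 scanner signal was 0.601 (TLR7tg) and 0.706 (B6), so folds hold on the deposited scale only. The deposited scanner table holds linear intensity and a detection p-value per array, per the file headers, and 8 of its per-sample columns match no mouse by label and were not used. No label ties an array to the other 4 mice, so background correction from the scanner intensity could not be run for all mice, and the test used the deposited log2 values unchanged, which understates differences of dim probes.

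The detection level of 6.9 is where at least 95% of probes per bin of 0.1 had a deposited detection p-value below 0.05 in the replicate 1 mouse of each line. A filter kept the 16535 probes that reached it in at least 3 of 6 mice, and the brightest stood for each gene. The brightest was chosen anew from the values of each alternative, so that another probe may stand for a gene there. Gene symbols came from the platform annotation (1 symbol for 34885 probes, several for 18), of which 34807 matched RefSeq identifiers with 0 symbols changed. The test was lmFit and eBayes of limma 3.58.1 (R 4.3.3), with Benjamini-Hochberg adjustment over kept probes, and it was tested on simulated data. A gene not detected in any mouse of a line has only a bound there, the mean of the other line over 6.9. Named genes are the members, Tlr7, up to 4 of the largest changes past the threshold and up to 2 genes that did not pass in each list, and the 3 genes most like each contrasted member. Those that did not pass were picked after their values were seen, and genes near 0 whose sign turned under an alternative, other than Ifna6 and Ifnab, were left to the counts, so that values near 0 are under-represented among the genes named. The members and lists were chosen with earlier results of these data known. Replicate numbers are names given in accession order. Median SDs between mice were 0.258 in TLR7tg and 0.211 in B6, and the number of arrays, 3 mice per line, limits the precision. Tables were built with Python 3.11.15 and pandas 2.3.3.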

Additional observations from a re-analysis of the deposited data

How the results depend on the processing

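Under 16 alternatives to the limma fit, the differences of Irf1, Irf3, Irf4, Irf5, Irf7, Irf8 and Irf9 kept their sign in each. Irf2 turned to -0.0073 without TLR7tg replicate 2, -0.11 without TLR7tg replicate 3 and -0.19 without B6 replicate 1, Ifna6 to -0.03, -0.06 and -0.19 without the same mice (-0.19 to 0.41 over the mice left out), and Ifnab to 0.0018 without TLR7tg replicate 1 (-0.42 to 0.0018). Without a filter on dim probes, Irf5 (1.63, adjusted p = 0.0841) and Irf7 (1.22, 0.0868) did not pass and Irf8 (-0.49, 0.0496) did, so that 0 members were called higher, 1 lower and 1 in either direction. The background without a filter was 2.41% of genes higher, 2.83% lower and 5.24% in either direction. Irf3 passed with array weights (-0.63, 0.0425), giving 1 member lower, beside 8.64% of genes. Irf3 (-0.62, 0.0155) and Irf8 (-0.49, 0.0400) passed with the replicate 1 mice against the other 4 as a block. That gave 2 lower and 4 in either direction, beside 11.1% of genes higher, 11.8% lower and 22.9% in either direction. The labels give no shared replicate number. With neighbouring mouse identifiers as a block, Irf3 (-0.62, 0.0176) and Irf8 (-0.49, 0.0444) passed, again 2 lower and 4 in either direction, beside 12.7% of genes lower and 24.9% in either.

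With each mouse left out in turn, 0 to 2 members were called in either direction and 0 to 2 higher, beside 8.31% to 15.1% and 4.60% to 8.22% of genes. Irf1 ran from 0.0030 to 0.52, Irf5 ran from 1.25 to 1.98, Irf7 from 0.88 to 1.42, Irf2 from -0.19 to 0.39, Irf3 from -0.72 to -0.49 and Irf8 from -0.56 to -0.40. Where a line was left with 2 mice, their spread was pooled over both lines. Of all kept probes 1178 were higher and 984 lower. The higher count was 728 without a filter and 760 with detection in all 6 mice. It was 1885 with the identifier block and 668 to 1242 with a mouse left out. The lower count was 645 with detection in all 6 mice and 543 to 975 with a mouse left out. With the replicate 1 block it was 1695 and with the identifier block 1832. Of the 113 list genes 46 were called, 27 without a filter and 27 to 51 with a mouse left out. The shares of all genes called in either direction were 14.7%, 5.24% and 8.31% to 15.1% in these settings. Of the named genes that are not members, 21 of 42 that passed lost their call under at least 1 alternative, and 12 of 21 that did not pass gained one. The cause of these changes was not tested. Signal over background limits the type I interferon genes most, with 11 of 14 at 6.9 or more in fewer than 3 of the 6 mice.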

Other observations

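On the paired technical arrays of replicate 1, the median log2 ratio of array 2 over array 1 over all probes was 0.37 in the TLR7tg mouse and 0.08 in the B6 mouse. The second Irf9 probe (0.88) and a pair of Irf1 probes (0.79 each) differed the most between the TLR7tg arrays among the 15 member probes. In the B6 mouse the members ran from -0.11 to 0.30. The deposited value of each of these mice averages its 2 arrays, and which array lay closer to the other mice was not tested.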
